A study of Mus musculus with 24 samples.

Results

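Levels of 10 genes of the cytosolic heat shock chaperone system were described across all 24 mouse liver libraries: Hspa1a, Hspa1b, Hspa8, Hsp90aa1, Hsph1, Hspb1, Hspb8, Dnaja1, Dnajb1 and Bag3. They were taken by name from a table of 33019 genes, and all 10 were among the 15851 genes that passed a filter on low counts. The libraries came from livers of C57BL/6J mice aged 2 months, 4 for each of 6 genotypes: wild type (WT), hepatic Atg5 KO (called Atg5 KO), hepatic TSC1 KO (TSC1 KO), hepatic Atg5/TSC1 DKO (DKO), hepatic Atg5/TSC1/p62 TKO (p62 TKO) and hepatic Atg5/TSC1/Nrf2 TKO (Nrf2 TKO). Atg5 is needed to form autophagosomes, Tsc1 restrains the growth kinase complex mTORC1, p62 (gene Sqstm1) is an autophagy receptor, and Nrf2 (gene Nfe2l2) is the transcription factor of antioxidant genes. DKO and both TKO groups therefore share the labelled losses of Atg5 and TSC1. No source used here gives the Cre driver, the sex, the deleted exons or a batch. Nor do the labels state that the libraries are separate animals, and p-values then measure only the spread between these samples, which may be technical.

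Heat shock chaperones hold other proteins in solution and refold them. HSP70 proteins (Hspa1a, Hspa1b, Hspa8) bind unfolded stretches in cycles that J-domain proteins (Dnaja1, Dnajb1) start and that HSP110 (Hsph1) and BAG3 help to end, small heat shock proteins (Hspb1, Hspb8) hold unfolding proteins, and HSP90 (Hsp90aa1) matures clients passed on by HSP70. BAG3 together with HSPB8 delivers damaged proteins to autophagy, and p62 binds such cargo. Most of these genes are induced by the heat shock factor HSF1, which binds repeats of a short inverted unit (the heat shock element, HSE) near their start sites.

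The HSE matches near the start sites are shown because they are the known docking sequence that most of these genes have in common. RefSeq promoters (build GRCm38.p6, 250 bases before to 50 after the start) were found for 8 of the 10 genes, and Hspa8 and Hsp90aa1 had no entry. A match to 3 HSE units was searched on both strands as GAANNTTCNNGAA, and 2 units as GAANNTTC or TTCNNGAA, which can overlap a 3-unit match. Each stretch of 30 bases is given 5′ to 3′ on the gene's strand, with the matched letters in capitals.
Hsph1 (chr5:149636287-149636316, minus strand, 3 units): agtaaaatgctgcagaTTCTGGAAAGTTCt
Hspa1a (chr17:34972242-34972271, minus strand, 2 units): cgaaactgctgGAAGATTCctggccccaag
Hspa1b (chr17:34959324-34959353, minus strand, 2 units): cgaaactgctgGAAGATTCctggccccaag
Hspb1 (chr5:135887801-135887830, plus strand, 2 separate matches of 2 units): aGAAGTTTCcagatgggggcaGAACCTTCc
Hspb8 (chr5:116422844-116422873, minus strand, 2 units): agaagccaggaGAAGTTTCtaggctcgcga
Dnaja1 (chr4:40722333-40722362, plus strand, 2 units): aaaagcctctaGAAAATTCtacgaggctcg
Bag3 (chr7:128523603-128523632, plus strand, 2 units): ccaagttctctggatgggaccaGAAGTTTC
Counted by gene over all its listed promoters, the 3-unit match was present in 1 of the 8 genes, Hsph1, and in 0.662% of 27025 genes. A 2-unit match of either form was present in 7 of the 8, all except Dnajb1, while GAANNTTC was in 9.04% and TTCNNGAA in 9.6% of all genes. The share of all genes with either form was not counted. The match began 104 bases before the start site in Hspa1a and Hspa1b, whose 300-base promoters were identical at 98.7% of positions. The letters of the antioxidant response element bound by NRF2, TGACNNNGC, were in 12.4% of all promoters and, among these genes, in Hsph1 and Dnajb1. These matches are descriptions of the sequence and were not tested as binding sites.

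Total counts per library ran from 10494080 to 13057467. Counts of whole genes did not show the labelled loss of Atg5 (22.5 to 31.4 CPM, counts scaled to a common library size, in WT and 38.6 to 46.7 in Atg5 KO) or of Tsc1 (33.1 to 36.7 in WT and 29.1 to 33.8 in TSC1 KO), and which exons were deleted is not known here. Nfe2l2 ran from 8.69 to 17.7 CPM in Nrf2 TKO and from 92.8 to 162 in DKO. Sqstm1 was 249, 439 and 363 CPM in 3 libraries labelled p62 TKO but 774 in the library labelled p62 TKO 4, against 508 to 691 in WT. Hepatocyte markers, led by Alb, Apoa1 and Ttr, had counts in every library.

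Levels below are CPM on TMM-scaled totals, changes are log2 fold changes ± SE, and genes with an edgeR quasi-likelihood p under 0.05 after Benjamini-Hochberg adjustment over all genes tested are named as called. Per kilobase of exon, the mean WT level was 636 CPM for Hspa8, the constitutive HSP70, and 174 for Hspb8, then 125 for Hsp90aa1. The stress-inducible Hspa1b stood at 20.2 and its near-identical neighbour Hspa1a at 0.909 CPM per kilobase, with Hspb1, Dnaja1, Bag3, Hsph1 and Dnajb1 between 15.2 and 52.1. The 10 genes held 0.148% to 0.522% of the counts of a library. Of the 75-base stretches of the transcripts, 61.7% in Hspa1a and 55.8% in Hspa1b also occurred in another gene, mostly in each other, so the division of reads between them is uncertain. The share was 46.4% for Hspb1, 42.8% for Hsp90aa1, 33.0% for Hspa8 and 18.4% for Dnaja1, such as with Hsp25-ps1, Gm12346 and Gm15459, and 0% for Hsph1, Hspb8, Dnajb1 and Bag3. Exons of Dnaja1 also overlap Smu1 by 608 bases on the opposite strand, and no source used here says whether the counting kept strands apart.

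**Figure D1:**
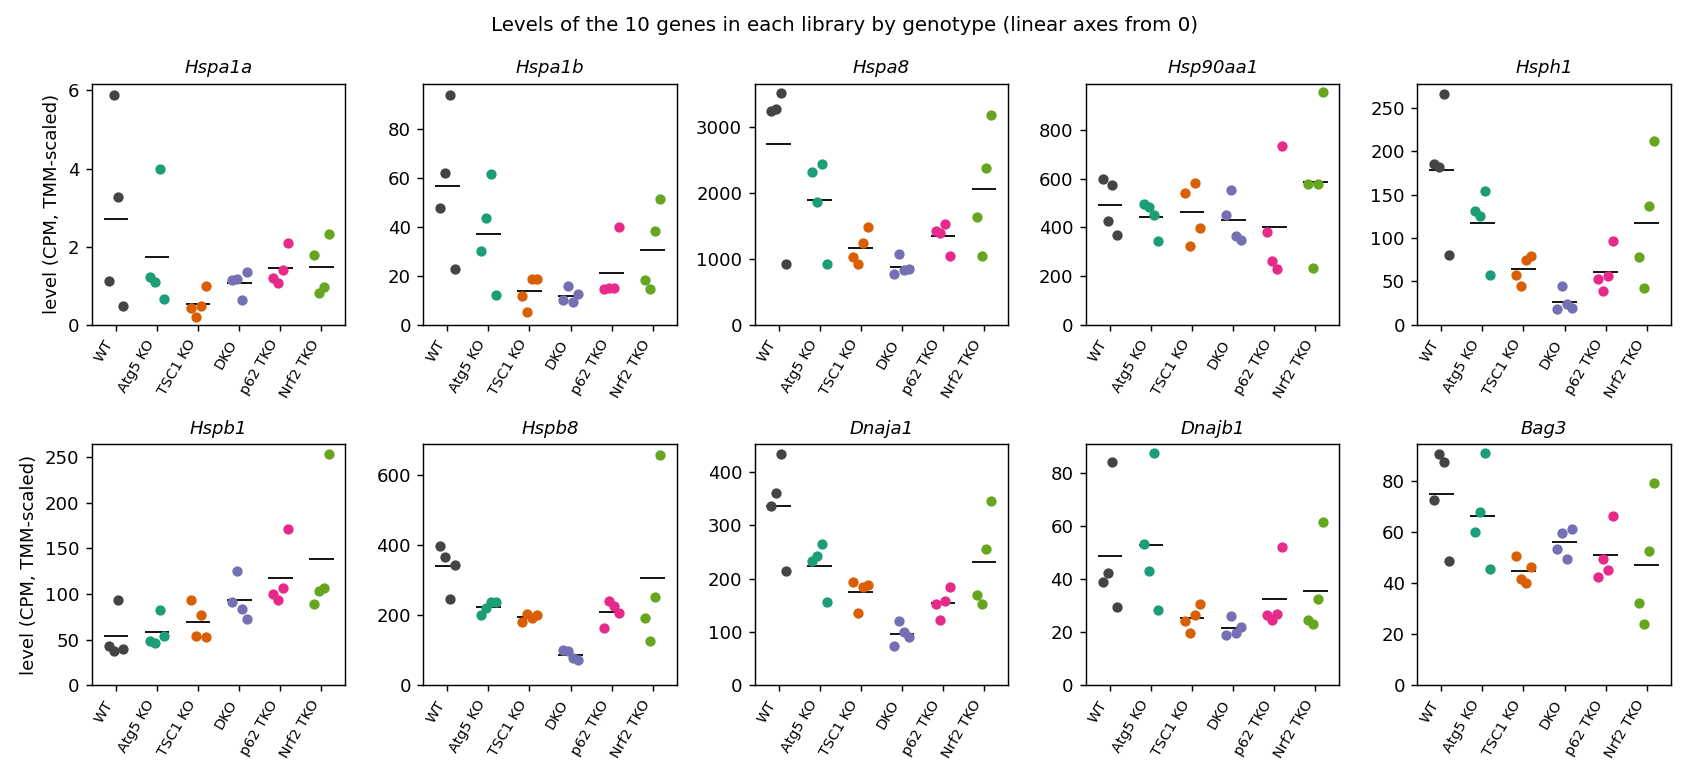
Level in CPM (y axis, linear from 0) of each of the 10 genes in each library (points) by genotype (x axis), with the group mean as a bar, n = 4 libraries per genotype. Hspa1b, Hsph1, Hspb8, Dnaja1 and Dnajb1 have all 4 DKO points below all WT points. The share of all genes separated in this way was not counted. Hspb1 has its lowest mean in WT, and WT 4 is the lowest WT point of Hspa8 at 926 CPM.

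In livers labelled DKO, most of the HSP70 machinery stood lower than in WT while Hspb1 stood higher. Of the 10 genes, 7 fell and 1 rose, against 32.3% lower and 37.1% higher among all genes tested, and the median log2 fold change of the 10 was -1.48 against 0.08 for all genes. Hsph1, Hspb8, Dnaja1, Hspa8, Hspa1b, Dnajb1 and Hspa1a were the genes that fell, and Hsp90aa1 and Bag3 did not pass the test. With scaling by total counts alone the median of all genes was 1.07, and 4 of the 10 were called lower and 3 higher, against 11.1% lower and 70.4% higher among all genes. Hsph1, Hspb8, Dnaja1 and Hspa1b were lower under both scalings, and the calls of Hspa8, Dnajb1 and Hspa1a were lost with total counts alone. In bulk liver, fewer cells of a type and less RNA per cell cannot be told apart.

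Hsph1, the HSP110 exchange factor that resets HSP70, gave the largest fold. Its level was 185, 182, 266 and 80.4 CPM in the WT libraries and 18.3, 44.2, 23.7 and 19.1 in DKO. All DKO libraries lay below all WT libraries, including the low WT 4. The change was -2.76 ± 0.47, a 6.78-fold lower level (adjusted p = 2.9e-05). Hsph1 stood at 131, 126, 154 and 57.7 CPM in Atg5 KO and at 57.8, 44.7, 75.0 and 78.7 in TSC1 KO. The TSC1 KO libraries were all below WT and all above DKO, whereas Atg5 KO overlapped WT. Under total counts Hsph1 was still lower in DKO than in WT, by -1.80.

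Hspa8, the constitutive HSP70, is the most abundant of the 10. It stood at 3236, 3261, 3515 and 926 CPM in WT and at 769, 1072, 833 and 841 in DKO. WT 4 lay inside the DKO range and the other WT libraries lay far above it. Hspa8 fell by 1.64 ± 0.36 on the log2 scale in DKO (adjusted p = 0.00031), but by 0.67 with total counts alone, where it no longer passed (adjusted p = 0.076).

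The inducible HSP70 gene Hspa1b stood at 47.8, 62.1, 94.1 and 22.8 CPM in WT and at 10.1, 15.7, 9.12 and 12.4 in DKO. The groups did not overlap. Hspa1b was 4.80-fold lower in DKO (-2.26 ± 0.54, adjusted p = 0.00096). Hspa1a was near the limit of detection, with 2 to 51 reads per library, and stood at 1.13, 5.89, 3.28 and 0.487 CPM in WT and 1.14, 1.18, 0.625 and 1.35 in DKO. These ranges overlapped, and the call of Hspa1a (-1.32 ± 0.58, adjusted p = 0.046) was lost on leaving out any 1 library except WT 1 or WT 4, with adjusted p from 0.054 without DKO 4 to 0.31 without WT 2 (-0.69). It was also lost without the filter on low counts (adjusted p = 0.095) and when only the groups compared were fitted (adjusted p = 0.066). Because these paralogs share most of their sequence, their counts were also summed, and the sum was lower in DKO by -2.20 ± 0.54 (adjusted p = 0.0011).

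Both J-domain partners of HSP70 fell in DKO. Dnaja1 stood at 337, 360, 434 and 214 CPM in WT and at 74.7, 120, 99.7 and 90.3 in DKO. Every DKO library was below every WT library, and Dnaja1 had the smallest adjusted p of the 10 (-1.81 ± 0.24, adjusted p = 7e-07). Dnajb1, which works with the inducible HSP70, stood at 38.9, 42.3, 84.2 and 29.7 CPM in WT and at 19.1, 26.2, 19.6 and 21.9 in DKO. The ranges were separate but close, with WT 3 high, and the change was -1.17 ± 0.36 (adjusted p = 0.0071). Dnajb1 changed by only -0.20 under total counts (adjusted p = 0.61).

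The small heat shock proteins went in opposite directions. Hspb8, the partner of BAG3, stood at 399, 368, 247 and 344 CPM in WT and at 100, 96.7, 77.5 and 72.6 in DKO. The DKO libraries were tightly grouped and lay far below WT, a 3.91-fold lower level (-1.97 ± 0.32, adjusted p = 1e-05). Hspb1 stood at 43.6, 37.9, 93.8 and 39.8 CPM in WT and at 91.4, 125, 83.7 and 72.8 in DKO. WT 3 lay inside the DKO range and the other WT libraries below it. Hspb1 rose by 0.79 ± 0.34 (adjusted p = 0.043), a call that was lost on leaving out WT 1, WT 2, WT 4, DKO 1, DKO 2 or DKO 3, with 0.58 and an adjusted p of 0.17 without WT 2. The call was also lost without the filter on low counts (0.87, adjusted p = 0.068) and when only the groups compared were fitted (0.77, adjusted p = 0.053). Under total counts Hspb1 was 1.76 higher (adjusted p = 0.00011).

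Bag3 and Hsp90aa1 were called in none of the 11 comparisons with edgeR on TMM-scaled counts of all 24 libraries. Bag3 stood at 72.8, 90.6, 87.6 and 48.6 CPM in WT and at 53.6, 59.7, 49.6 and 61.1 in DKO, with WT 4 below all DKO libraries and the other WT libraries above them (-0.42 ± 0.27, adjusted p = 0.17). Hsp90aa1, the inducible cytosolic HSP90, stood at 601, 427, 574 and 369 CPM in WT and at 450, 554, 364 and 349 in DKO. These ranges overlapped almost fully (-0.20 ± 0.34, adjusted p = 0.62). Both genes were called higher in DKO than in WT with total counts alone, Hsp90aa1 by 0.78 and Bag3 by 0.56. DESeq2 called Bag3 lower in TSC1 KO versus WT (-0.73, adjusted p = 0.049) and in Nrf2 TKO versus WT (-0.67, adjusted p = 0.04). With edgeR on only the groups compared, Bag3 was lower than in WT in TSC1 KO (-0.74, adjusted p = 0.012) and DKO (-0.44, adjusted p = 0.038). That fit also called it higher in DKO than in TSC1 KO (0.27, adjusted p = 0.042).

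**Figure D2:**
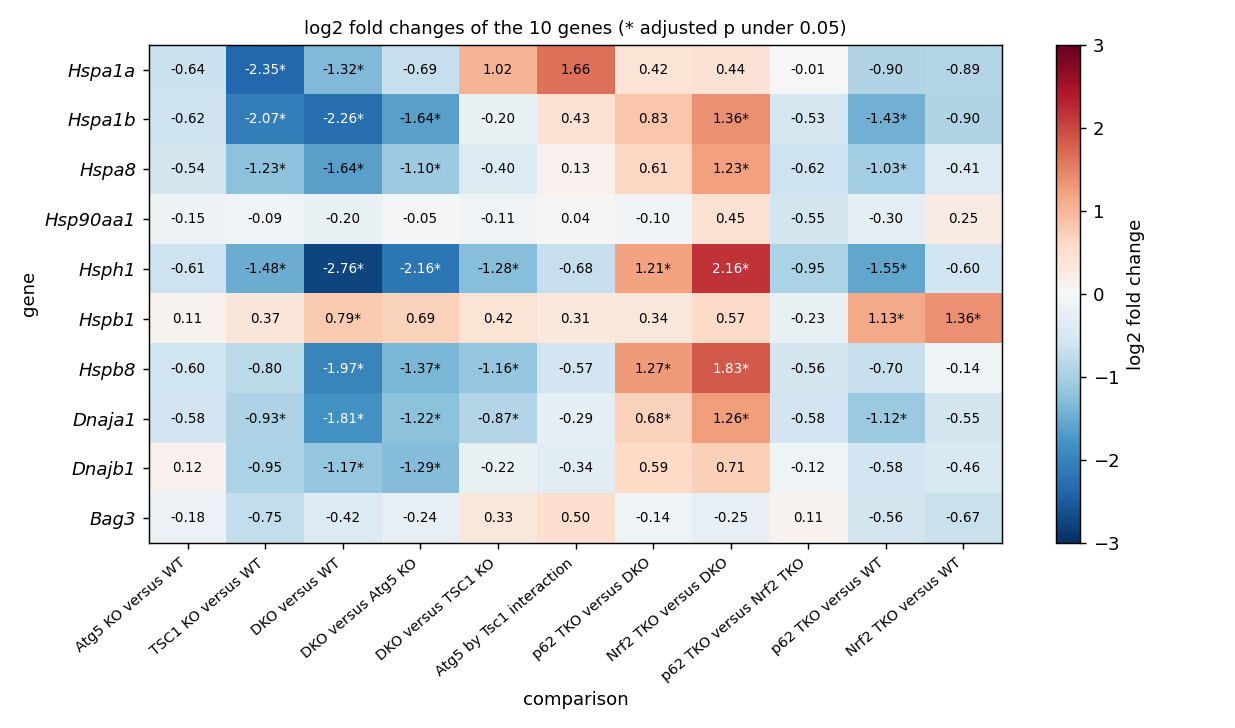
Colour and printed value give the TMM-scaled log2 fold change of each of the 10 genes (rows) in each of 11 comparisons (columns), and a star marks an adjusted p under 0.05. Blue dominates the comparisons with WT, red the comparisons of both TKO groups with DKO, and the rows of Hsp90aa1 and Bag3 hold no star.

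The loss of TSC1 alone went with lower levels of several HSP70 system genes. In TSC1 KO versus WT, 5 of the 10 genes fell and 0 rose, against 7.6% lower and 8.79% higher among all genes, with a median of -0.94 against 0.01. Hspa1b stood at 11.9, 5.12, 18.7 and 18.5 CPM in TSC1 KO, all below its WT range. It fell by 2.07 ± 0.54 (adjusted p = 0.014), and the near-undetected Hspa1a fell by 2.35 ± 0.66 (adjusted p = 0.018). Dnaja1 stood at 194, 136, 185 and 189 CPM in TSC1 KO, again all below WT, and fell by 0.93 ± 0.24 (adjusted p = 0.0098). Hspa8 was 1032, 917, 1233 and 1472 CPM, with WT 4 within this range, and fell by 1.23 ± 0.35 (adjusted p = 0.02). Hsph1 fell by 1.48 ± 0.45 (adjusted p = 0.03). DESeq2 called 7 lower, with Dnajb1 (-0.92, adjusted p = 0.048) and Bag3 (-0.73, adjusted p = 0.049) added. The count of 5 dropped to 2 without WT 2 or without TSC1 KO 2 and to 3 without WT 1, WT 3 or TSC1 KO 1, where Hspa8 and Hsph1 lost their calls with changes between -1.09 and -1.48. Hspa1a lost its call as well without WT 2 or TSC1 KO 2, Hsph1 also without TSC1 KO 3 (-1.58, adjusted p = 0.053), and Bag3 was called lower without WT 4 (-0.86, adjusted p = 0.045). Hspb8, at 182, 205, 191 and 200 CPM, lay wholly below WT in TSC1 KO but did not pass (-0.80 ± 0.31, adjusted p = 0.078). With edgeR on only the groups compared, Hspb8 was called lower (-0.80, adjusted p = 0.0028).

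In Atg5 KO versus WT, 0 of the 10 genes were called with edgeR, against 18.6% higher and 11.3% lower among all genes. At an unadjusted p under 0.05 the count was 1, and DESeq2 also called 0. The median of the 10 was -0.56 against 0.00 for all genes. Dnaja1 stood at 233, 243, 266 and 156 CPM in Atg5 KO and overlapped WT only through WT 4 (-0.58 ± 0.24, adjusted p = 0.066). Without WT 4, Dnaja1 passed at -0.72 (adjusted p = 0.029). Hspb8, at 202, 222, 238 and 237 CPM, lay below all WT libraries without passing (-0.60 ± 0.31, adjusted p = 0.15). It was called lower with edgeR on only the groups compared (-0.57, adjusted p = 0.02). Hspa8 was 2313, 1863, 2436 and 924 CPM in Atg5 KO, with Atg5 KO 4 far below the rest, and Bag3 was 60.1, 68.0, 91.1 and 45.7.

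DKO also stood lower than Atg5 KO for part of the group, while the count lower than TSC1 KO was at the share among all genes. Against Atg5 KO, 6 of the 10 genes were lower and 0 higher in DKO, with 27.3% lower and 29.2% higher among all genes. They were Hsph1 (-2.16 ± 0.46, adjusted p = 0.00049), Hspa1b, Hspa8, Hspb8, Dnaja1 (-1.22 ± 0.24, adjusted p = 0.00014) and Dnajb1. Without Atg5 KO 3, Hspa1b lost its call (-1.28, adjusted p = 0.058) and Hspb1 was called higher (0.90, adjusted p = 0.042). Against TSC1 KO, 3 were lower and 0 higher, with 30% lower and 36.6% higher among all genes. Those 3 were Hsph1 (-1.28 ± 0.45, adjusted p = 0.017), Hspb8 (-1.16 ± 0.31, adjusted p = 0.0023) and Dnaja1 (-0.87 ± 0.24, adjusted p = 0.0026), whose DKO libraries all lay below all TSC1 KO libraries. Total counts alone gave 3 lower and 1 higher against Atg5 KO, where 12.3% of all genes were lower and 57.8% higher. Against TSC1 KO they gave 0 lower and 4 higher (Hspa1a, Hsp90aa1, Hspb1 and Bag3), where 11.9% of all genes were lower and 68% higher, and the 3 lower calls above were lost.

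Whether the DKO change departed from the sum of the changes in the single knockouts was tested as an interaction. Of the 10 genes, 0 were called with edgeR, 0 had an unadjusted p under 0.05 and DESeq2 called 0, against 15.5% higher and 19.3% lower among all genes. The estimates ran from -0.68 ± 0.63 for Hsph1 to 1.66 ± 0.88 for the low-count Hspa1a, and that for Dnaja1 was -0.29 ± 0.33. With total counts alone 2 were higher, Hspa1a and Bag3, against 35.5% higher among all genes, whose median was 0.52. With edgeR on only the groups compared, Hspb8 was called (-0.64, adjusted p = 0.018).

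With Nrf2 lost as well, several genes stood higher than in DKO. Both TKO groups are compared with the same DKO libraries that were compared with WT, so the directions are not independent of those above. In Nrf2 TKO versus DKO, 5 of the 10 rose and 0 fell, against 26.7% higher and 29.2% lower among all genes, with a median of 0.97 against -0.05. Hsph1 stood at 78.5, 41.8, 137 and 212 CPM in Nrf2 TKO, and only the second library lay inside the DKO range (2.16 ± 0.46, adjusted p = 0.00051). Hspb8 stood at 193, 127, 253 and 659 CPM, all above DKO, with Nrf2 TKO 4 far above the others (1.83 ± 0.32, adjusted p = 4.2e-05). Dnaja1 stood at 169, 153, 255 and 345 CPM, also all above DKO (1.26 ± 0.24, adjusted p = 0.00011).

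Hspa8 stood at 1627, 1042, 2372 and 3184 CPM in Nrf2 TKO, with the second library inside the DKO range, and rose by 1.23 ± 0.35 (adjusted p = 0.0051). Hspa1b, at 18.2, 14.4, 38.1 and 51.2 CPM, rose by 1.36 ± 0.53 (adjusted p = 0.035) but did not pass without Nrf2 TKO 4 (1.05, adjusted p = 0.12), nor without DKO 1, DKO 3, DKO 4 or Nrf2 TKO 3 (adjusted p from 0.061 to 0.085). Nor did it pass without the filter on low counts (adjusted p = 0.11) or with the replicate number as a block (1.24, adjusted p = 0.057). Bag3 was 32.3, 24.2, 52.6 and 79.4 CPM and spread to both sides of the DKO range (-0.25 ± 0.27, adjusted p = 0.45). Hsp90aa1 was 577, 234, 580 and 956 CPM (0.45 ± 0.35, adjusted p = 0.28). Its highest Nrf2 TKO library was 4.09 times its lowest, the largest such ratio of its 6 groups. With total counts alone, 3 of the 10 were higher (Hsph1, Hspb8 and Dnaja1) and 1 lower (Bag3, -0.96), against 11.5% higher and 59.8% lower among all genes.

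In p62 TKO versus DKO, 3 of the 10 rose and 0 fell, against 22.3% higher and 21.5% lower among all genes. Hspb8 stood at 164, 241, 226 and 206 CPM, all above DKO, and rose by 1.27 ± 0.31 (adjusted p = 0.0021). Hsph1, at 52.9, 38.3, 55.6 and 96.7 CPM, overlapped DKO through its second library (1.21 ± 0.45, adjusted p = 0.035). Dnaja1, at 152, 123, 159 and 184 CPM, lay just above DKO (0.68 ± 0.24, adjusted p = 0.023). Without the library labelled p62 TKO 4, whose Sqstm1 level was not low, only Hspb8 was still called, with Hsph1 at 0.90 (adjusted p = 0.14) and Dnaja1 at 0.59 (adjusted p = 0.071). The same count of 1 came without DKO 1 or without DKO 4. Hsph1 also lost its call without DKO 3 (adjusted p = 0.081) or p62 TKO 3 (adjusted p = 0.052), and with the replicate number as a block (1.16, adjusted p = 0.059). Hspb8 (higher) and Bag3 (lower) were the calls with total counts alone, 1 in each direction, against 10.2% higher and 47.6% lower among all genes.

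No difference between the triple knockouts passed the test in these genes. In p62 TKO versus Nrf2 TKO, 0 of the 10 were called with edgeR, 2 had an unadjusted p under 0.05 and DESeq2 called 0, against 10.4% higher and 7.11% lower among all genes. Dnaja1 came closest (-0.58 ± 0.24, adjusted p = 0.095). Without Nrf2 TKO 2, Hspb8 and Dnaja1 were called lower in p62 TKO (-0.82 and -0.73), and without p62 TKO 4, Hsp90aa1 was (-1.01).

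Against WT, Hspb1 was higher in both triple knockouts. In p62 TKO versus WT, 1 of the 10 rose and 4 fell, against 28% higher and 22.9% lower among all genes. Hspb1, at 99.8, 93.4, 107 and 171 CPM, lay above 3 of the 4 WT libraries, with its lowest library level with WT 3, and rose by 1.13 ± 0.34 (adjusted p = 0.0089). Hspa1b, Hspa8, Hsph1 (-1.55 ± 0.45, adjusted p = 0.0073) and Dnaja1 (-1.12 ± 0.24, adjusted p = 0.00046) fell. Hspa8 lost its call without the library labelled p62 TKO 4 (-0.92, adjusted p = 0.056) or without WT 1 (adjusted p = 0.053). Hspa1b lost its call without WT 3, p62 TKO 1, p62 TKO 2 or p62 TKO 3 (-1.11 to -1.34, adjusted p from 0.069 to 0.10). Hspb8 was called lower without WT 3 (-0.86) and Bag3 without WT 4 (-0.69). Hspb8 was also called lower by DESeq2 (-0.70, adjusted p = 0.049) and by edgeR on only the groups compared (-0.67, adjusted p = 0.0072). Total counts alone gave 1 higher and 2 lower, against 54.1% higher and 6.23% lower among all genes. In Nrf2 TKO versus WT, 1 of the 10 rose and 0 fell, against 22.4% higher and 17.1% lower among all genes, and it was again Hspb1 (88.8, 103, 107 and 253 CPM, 1.36 ± 0.34, adjusted p = 0.0037). Without Nrf2 TKO 4, Hspb8 (-0.84), Dnaja1 (-0.82) and Bag3 (-1.05) were called lower than in WT, which made 4 calls. Without WT 4, Dnaja1 and Bag3 were, which made 3.

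Within each genotype, 1 or more libraries were at the edge of the group in many of the genes at once. WT 4 had the lowest WT level of Hspa1a, Hspa1b, Hspa8, Hsp90aa1, Hsph1, Dnaja1, Dnajb1 and Bag3, and Atg5 KO 4 had the lowest level of its group in the same 8 genes. Nrf2 TKO 4 had the highest level of its group in all 10 genes, and Nrf2 TKO 2 had the lowest in 9. The library labelled p62 TKO 4 was the highest of its group in 8 of the 10 (Hspa1b at 40 CPM against 14.4 to 14.9) but the lowest in Hspa8, and TSC1 KO 2 was the lowest of its group in 7. Atg5 KO 3 was the highest of its group in 9 genes and DKO 2 in 7. How often each library was at the edge of its group among all genes tested was not counted. Leaving aside Hspa1a with its few reads, the spread within a genotype was widest for Hspb8 in Nrf2 TKO, where the highest library was 5.18 times the lowest, and narrowest for Hspb8 in TSC1 KO, at 1.12 times. Of the variance of log2 CPM, 75.1% lay between genotypes for Dnaja1, 70.1% for Hspb8 and 68.6% for Hsph1, but 37.1% for Bag3 and 11.6% for Hsp90aa1.

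The genes moved together across libraries. Over the 45 pairs, Pearson's r of log2 CPM in the 24 libraries had a median of 0.56 and ran from -0.12 to 0.98, and after subtraction of each genotype's mean the median was 0.67, from 0.18 to 0.95. These values describe points that share a library, its depth and its scaling. The closest pair was Hsph1 and Dnaja1 (0.98 over all libraries, 0.95 within genotypes). Hspb1 had an r between -0.12 and 0.33 with the others over all libraries, but between 0.36 and 0.79 within genotypes, so its libraries followed the others inside a genotype while its genotype means did not. Hsp90aa1 and Bag3, which were called in no comparison with edgeR on TMM-scaled counts of all 24 libraries, followed Hsph1 within genotypes with r of 0.79 and 0.83.

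**Figure D3:**
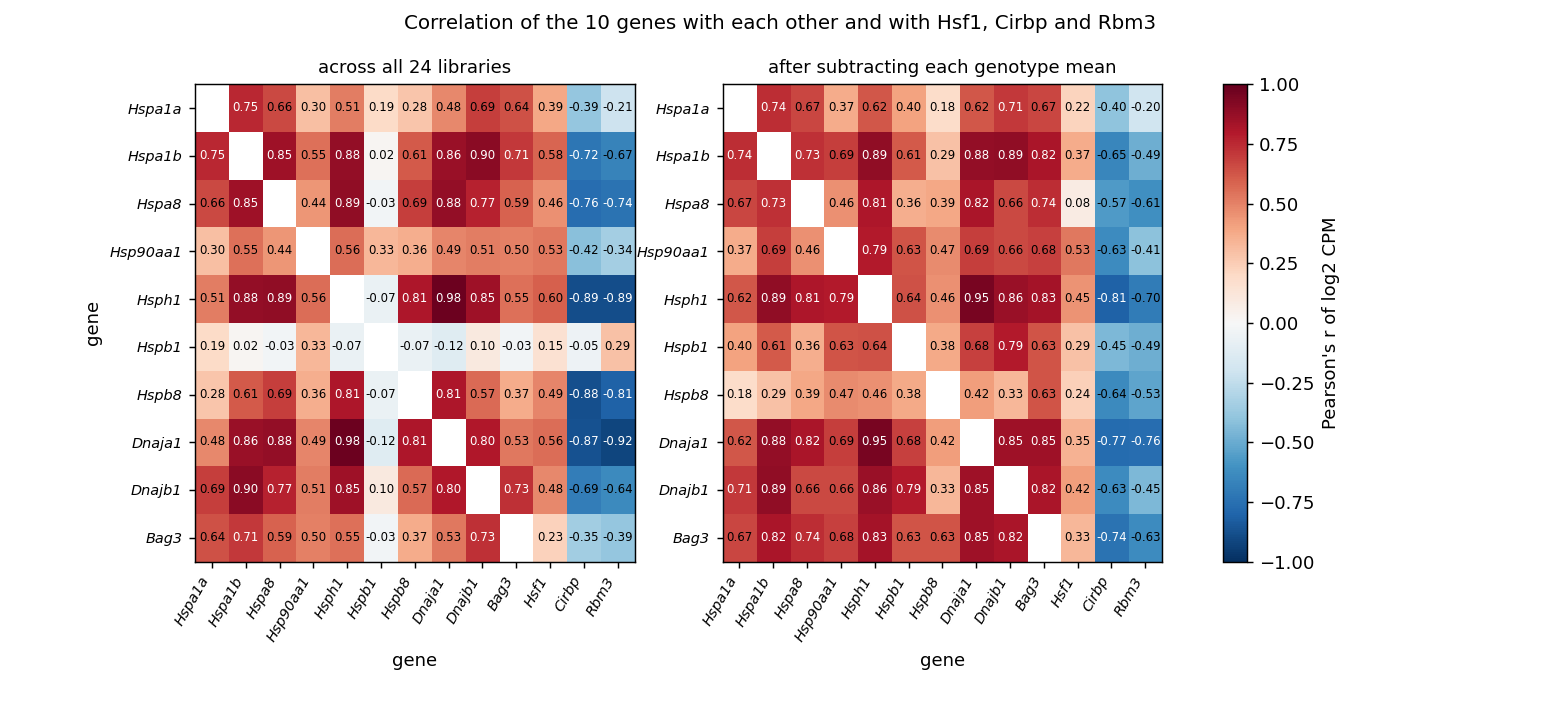
Pearson's r of log2 CPM between each of the 10 genes (rows) and the 10 genes, Hsf1, Cirbp and Rbm3 (columns), over 24 libraries on the left and after subtraction of each genotype's mean on the right. The row of Hspb1 is near 0 on the left and positive on the right, and the columns of Cirbp and Rbm3 are negative for Hsph1 and Dnaja1 on both sides.

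Among all genes tested, those most like each member were ranked by the same r. For Hsph1 they were Stip1 (0.98), which joins HSP70 to HSP90, Dnaja1 (0.98) and Ahsa2 (0.95), and for Dnaja1 they were Stip1, Hsph1 and Ahsa2. Dnajb1 was closest to P4ha1 (0.93), Hspa1b (0.90) and Hsp90ab1 (0.87), and Hspa1b to Dnajb1, Hsph1 and P4ha1. Hspa8 was closest to Hsph1 (0.89), Hspa4l and Dnaja1, and Hsp90aa1 to Hsp90ab1 (0.65), Abhd11os and Smarca5. Hspb8 differed: its nearest genes were Fga, Fgg and Fgb, the fibrinogen chains secreted by hepatocytes, at 0.93 each (0.80 to 0.83 within genotypes). Hspb1 was closest to Dusp8 (0.87), Pbx3 and Aebp2, Bag3 to Uspl1 (0.86), Zfp341 and Tfe3, and the low-count Hspa1a to Hspa1b (0.75), Trpm2 and Cxcl13.

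The cold-inducible RNA-binding proteins Cirbp and Rbm3, whose transcripts are known to rise when temperature falls, went the other way. Rbm3 stood at 52.2, 47.5, 45.0 and 70.4 CPM in WT and at 343, 159, 199 and 303 in DKO. The groups were far apart, WT 4 was the highest of WT, and Rbm3 rose by 2.22 ± 0.25 (adjusted p = 6.8e-08). Cirbp stood at 20.1, 18.9, 21.9 and 24.1 CPM in WT and at 132, 50.7, 90.0 and 68.7 in DKO, and rose by 2.01 ± 0.31 (adjusted p = 8.3e-06). Both were higher with total counts alone as well, by 3.23 and 3. Both fell in p62 TKO and in Nrf2 TKO against DKO. With Hsph1, r was -0.89 for each over the 24 libraries, and -0.81 for Cirbp and -0.70 for Rbm3 within genotypes. Within genotypes r with Rbm3 was negative for all 10 chaperone genes, from -0.76 for Dnaja1 to -0.20 for Hspa1a.

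**Figure D4:**
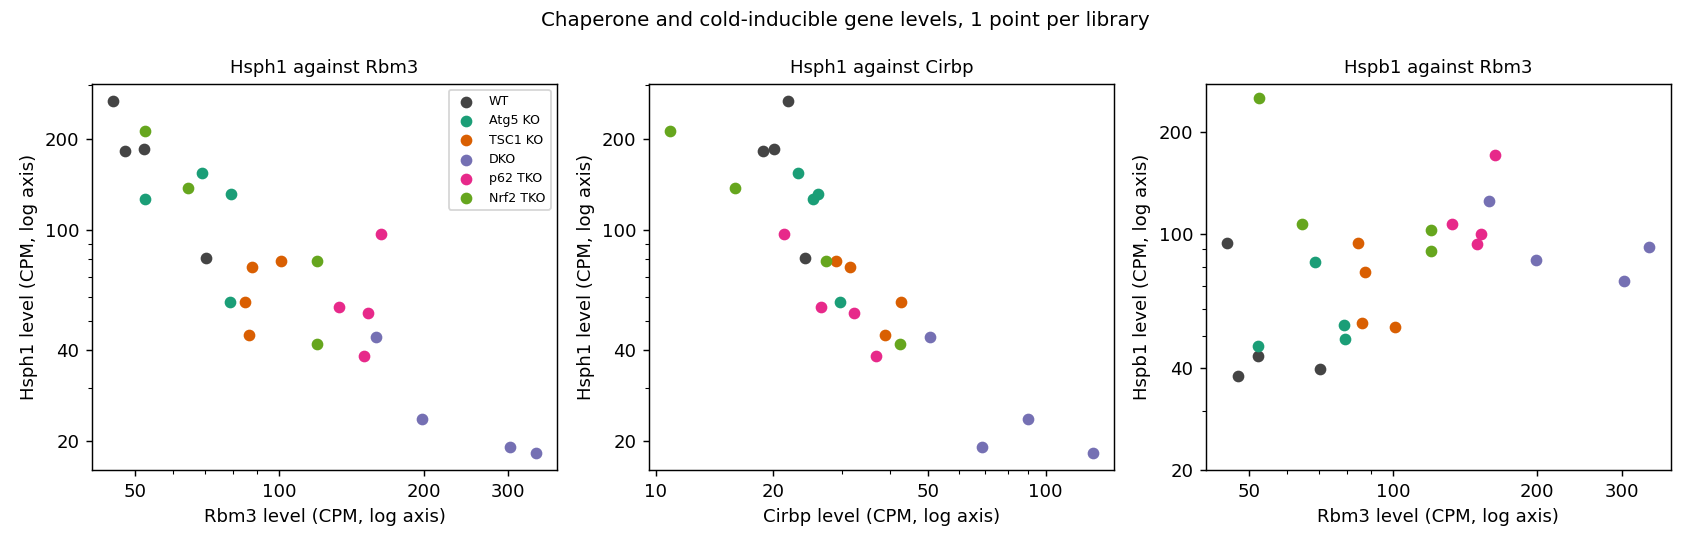
Level of Hsph1 against Rbm3 (left) and Cirbp (middle), and of Hspb1 against Rbm3 (right), in CPM on log axes, 1 point per library coloured by genotype. Libraries with high Rbm3 or Cirbp, led by DKO, hold low Hsph1, whereas DKO and p62 TKO libraries combine high Rbm3 with high Hspb1.

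Transcripts of the regulators changed less. Hsf1, the main heat shock factor, stood at 18.8, 21.1, 21.6 and 20.7 CPM in WT and at 15.6, 18.3, 15.4 and 17.2 in DKO. The DKO libraries were all below WT by a small margin (-0.31 ± 0.13, adjusted p = 0.044), but with total counts alone Hsf1 was 0.68 higher. Within genotypes its r with the 10 genes ran from 0.08 for Hspa8 to 0.53 for Hsp90aa1. Of 5 tested heat shock factors and regulators, 3 fell in DKO versus WT (Hsf1, Hsf2 and Hsf4), and with total counts alone 4 rose, where 70.4% of all genes did.

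The rest of the chaperone network gave a wider picture of DKO versus WT, where 32.3% of all genes fell and 37.1% rose. Among HSP70 exchange and adaptor co-chaperones, 4 of 9 fell and 1 rose: Stip1, the gene nearest to Hsph1, fell by 1.68 ± 0.25 and St13 by 0.81 ± 0.13, and Bag2 rose by 1.92 ± 0.24. Among HSP90 and its co-chaperones, 9 of 16 fell and 2 rose, with the abundant Hsp90ab1 lower by -0.84 ± 0.22, Ppid by -1.30 ± 0.14 and Tomm34 higher by 1.19 ± 0.13. Of the other HSP70 and HSP110 genes 4 of 7 fell, with Hspa4 at -0.98 ± 0.13, and 1 rose, Hspa2, at 2.42 ± 0.25. The other J-domain genes were near the shares of all genes, with 5 of 14 lower and 4 higher, and of the TRiC chaperonin and prefoldin 10 of 14 fell and 3 rose. All 10 mitochondrial chaperones fell, such as Hspd1, the mitochondrial HSP60 (-2.14 ± 0.19), and Clpb (-1.64 ± 0.10). These lists were read with earlier results known and were given no set test.

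The calls in most of these lists moved with the scaling. With total counts alone, where 70.4% of all genes were higher and 11.1% lower, 11 TRiC and prefoldin genes were higher and 0 lower, 11 other J-domain genes were higher and 1 lower, and 8 HSP90-related genes were higher and 3 lower. The mitochondrial chaperones still had 6 lower and 2 higher, and Stip1 was lower under both scalings (-0.70 with total counts). Hsp90ab1, St13, Hspa4 and Ppid were not called with total counts (0.14, 0.18, 0.01 and -0.31).

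Of the other small heat shock proteins, Cryab and Hspb2 had larger rises than Hspb1. Cryab, the alpha-B crystallin, stood at 3.63, 3.23, 6.25 and 3.41 CPM in WT and at 164, 132, 171 and 144 in DKO. The groups were far apart (5.2 ± 0.34, adjusted p = 2.3e-11), and the change was as large with total counts (6.18). Cryab also rose in Atg5 KO (1.59 ± 0.32) and TSC1 KO (1.41 ± 0.33) and fell in both TKO groups against DKO, by 2.45 ± 0.28 in p62 TKO and by 2.61 ± 0.29 in Nrf2 TKO. Hspb2 rose by 3.49 ± 0.50 in DKO versus WT (adjusted p = 1.5e-06). In this list 2 of 4 tested genes rose in DKO and 1 fell, Hspb6, by 1.62 ± 0.18.

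**Figure D5:**
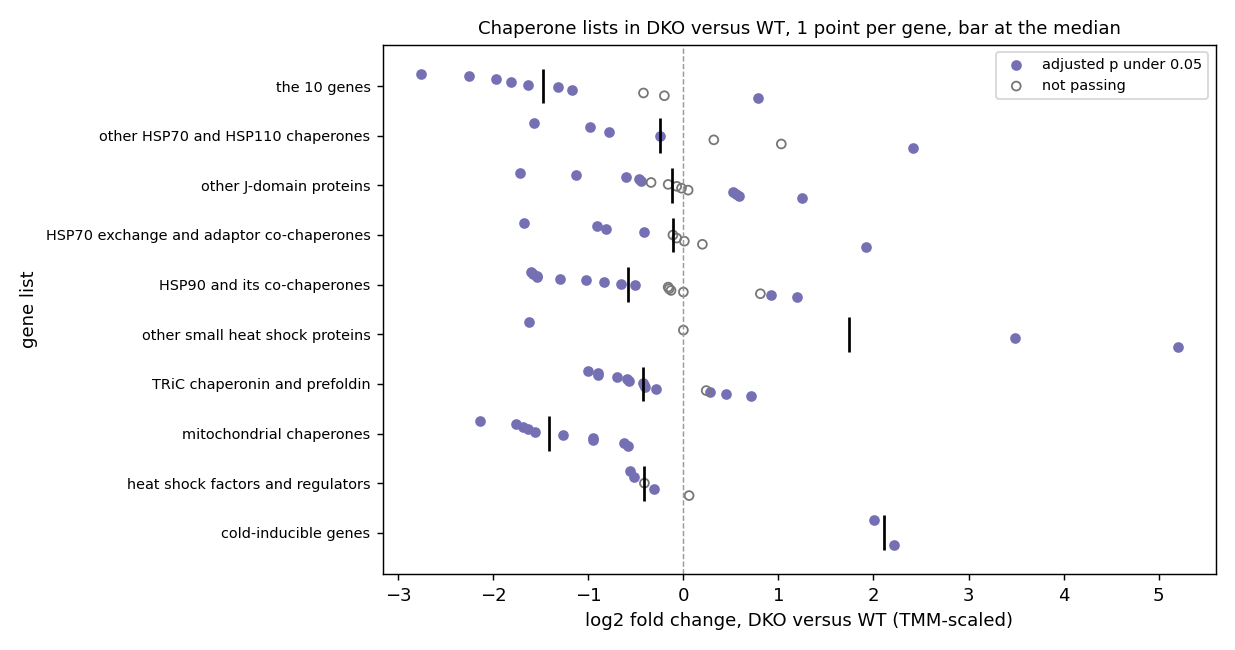
Log2 fold change in DKO versus WT with TMM scaling (x axis) of the 10 genes and of the other chaperone lists (y axis), 1 point per gene, filled where the adjusted p is under 0.05, with a bar at each median. The 10 genes have a median of -1.48 and the mitochondrial chaperones one of -1.42, Cryab is the point farthest right, and the cold-inducible genes lie above 2.

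Cell-type markers moved with the same comparisons. The summed CPM of 9 hepatocyte markers was 93844 to 111819 in WT and 14460 to 19469 in DKO, with 9 of 9 lower. In TSC1 KO the sum was 81768 to 95654, in Atg5 KO it spread from 51053 to 117784, and it was 69481 to 95092 in Nrf2 TKO and 39089 to 53638 in p62 TKO. The sum of 10 cholangiocyte markers, led by Spp1, Sox9 and Krt7, was 64.4 to 95.8 in WT and 6740 to 10061 in DKO, with 10 of 10 higher, and 448 to 1106 in Atg5 KO and 564 to 943 in TSC1 KO. Of the cholangiocyte markers, Cldn4 and Cftr were each at 0 in 2 libraries. The part of these cell types in the chaperone differences was not tested.

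Summed levels of macrophage markers ran from 230 to 387 CPM in WT, from 78.8 to 165 in TSC1 KO and from 409 to 691 in DKO, and those of stellate and smooth muscle markers from 79.4 to 128 in WT and from 381 to 472 in DKO. These sums hide a split. In DKO versus WT, 5 of 10 macrophage markers rose and 4 fell, and 4 of 9 stellate and smooth muscle markers rose and 2 fell. Among all genes tested, 37.1% rose and 32.3% fell. Clec4f, for example, was 49.0 to 85.2 CPM in WT and 1.04 to 13.1 in DKO, while Lyz2 was 28.1 to 53.8 in WT and 144 to 260 in DKO. Lymphocyte markers summed to 8.16 to 20.4 CPM in WT and 34.5 to 70.5 in DKO, neutrophil markers to 6.46 to 15 and 10.2 to 21.5, and endothelial markers to 112 to 223 and 180 to 233. In that order, 6 of 9, 0 of 6 and 5 of 10 rose in DKO versus WT, and 0, 0 and 2 fell. The sum of 14 circadian clock genes was 409, 449, 486 and 842 CPM in WT, highest in WT 4, the library with low Hspa8, Hsph1 and Dnaja1. In Atg5 KO it was 372, 381, 319 and 485, again highest in Atg5 KO 4, which was low in the same genes. In TSC1 KO the sum was highest in TSC1 KO 4 (644), which had the highest Hspa8 and Hsph1 of its group, and in Nrf2 TKO it ran from 424 to 516, highest in Nrf2 TKO 4, which had the highest level of all 10 genes. It was 425 to 594 in DKO, highest in DKO 1, which had the lowest Hspa8, Hsph1 and Dnaja1 of its group, and 497 to 605 in p62 TKO, highest in p62 TKO 3. Single genes within the sum went in opposite directions. In WT, Arntl was 27.0, 27.5, 24.1 and 0.974 CPM and Dbp 6.24, 7.16, 5.61 and 91.6. In Atg5 KO, Arntl was 16.3, 34.0, 25.6 and 3.97 and Dbp 16.8, 2.97, 7.25 and 60.5. In TSC1 KO, Arntl was 11.8, 20.5, 10.5 and 5.62 and Dbp 24.3, 7.02, 13.8 and 45.6. In Nrf2 TKO, Arntl was 11.1, 6.84, 22.6 and 14.5 and Dbp 19.7, 38.4, 4.94 and 10.1. Immediate-early genes summed to 343 to 847 CPM in WT, to 501 to 931 in DKO and to 1148 in Nrf2 TKO 4, the highest of the 24. The part of the clock and immediate-early genes in the chaperone levels was not tested, and the labels give no time of collection.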

How the data were processed

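Liver RNA of 24 libraries was compared by the genotype in the labels. Per the labels' protocols, livers were snap frozen, and polyA-selected stranded libraries were read as single 75 bp reads. The deposited table holds raw counts, 1 row per Ensembl gene. Per the submitters' processing notes, the authors made these counts with Trimmomatic 0.36, HISAT2 2.1.0, HTSeq and GRCm38. No source used here gives the HTSeq version, annotation release or strand setting.

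Symbols, exon lengths and overlaps came from GENCODE M21 (GRCm38), which named 32953 of 33019 genes, and promoters from RefSeq (GRCm38.p6). Counts were filtered with filterByExpr on the 6 groups (15851 genes), scaled by TMM, and fitted with 1 mean for each genotype, leaving 18 residual degrees of freedom, by edgeR 4.0.16's robust quasi-likelihood method in R 4.3.3. Each comparison was adjusted by Benjamini-Hochberg and called under 0.05. SEs are the absolute log2 fold change over the square root of F. The fit was also run on data simulated for WT and DKO with few genes changed, which cannot decide between the scalings. Correlations used log2 CPM with a prior count of 2. Python 3.11.15, pandas 2.3.3, numpy 2.4.6 and matplotlib 3.10.9 served for descriptions and figures.

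The 10 genes, the gene lists and the tests were chosen with earlier results of these data known. Genes named outside the 10 were those with the smallest adjusted p in DKO versus WT (at most 3) and the highest mean CPM of each chaperone list, Hsf1, Cirbp and Rbm3, the 4 targeted genes, the 3 most abundant genes of a marker list, and the 3 genes of highest r with each of the 10. Arntl, Dbp, Clec4f and Lyz2 were also named, to show single genes within the sums of their lists. Hsf5, Hspa1l, Dnajb3, Hspb7 and Hspb9 did not pass the filter. Alternatives were DESeq2 1.42.0, its size factors, total counts alone, no filter, a fit of the compared groups only, a replicate block, Hspa1a and Hspa1b summed, and leaving out each library. Agreement of replicates was checked, and no pair of libraries agreed within sampling noise.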

Additional observations from a re-analysis of the deposited data

Results flagged for a closer look

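In 6 of 60 combinations of gene and genotype, 1 library lay far from the other 3 relative to the range of the group (Dixon's test). Chance flags about 1 in 20 such groups. Hspa8 was 926 CPM in WT 4 and 3236 to 3515 in the other WT libraries. Hspb1 was 93.8 CPM in WT 3 (37.9 to 43.6 in the others) and 253 in Nrf2 TKO 4 (88.8 to 107 in the others). Hspa1b was 40 CPM in p62 TKO 4 (14.4 to 14.9 in the others), and Dnajb1 was 52.3 in the same library (24.6 to 27.0 in the others). Dnaja1 was 136 CPM in TSC1 KO 2 and 185 to 194 in the other TSC1 KO libraries.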

How the results depend on the processing

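Scaling by DESeq2's size factors changed 0 of the 110 gene-by-comparison calls, and DESeq2 in place of edgeR added 4. With total counts alone 15 calls were lost, 8 gained and 3 turned to the opposite sign with a call: Hsp90aa1 (0.78, adjusted p = 0.041) and Bag3 (0.56, adjusted p = 0.046) in DKO versus WT, and Hsp90aa1 in DKO versus TSC1 KO (0.75, adjusted p = 0.05). The number of the 10 genes called then moved to 2 in the interaction and 3 in p62 TKO versus WT. Without the filter on low counts it was 3 in TSC1 KO versus WT, 1 in p62 TKO versus DKO and 3 in p62 TKO versus WT. Fitting only the groups compared gave 1 in Atg5 KO versus WT, 5 in DKO versus TSC1 KO and 1 in the interaction, and DESeq2 gave 2 in Nrf2 TKO versus WT. Leaving out 1 library at a time gave 0 to 1 in Atg5 KO versus WT, 2 to 6 in TSC1 KO versus WT, 6 to 7 in DKO versus WT, 0 to 1 in the interaction (1 without Atg5 KO 3), 1 to 3 in p62 TKO versus DKO, 4 to 5 in Nrf2 TKO versus DKO, 0 to 2 in p62 TKO versus Nrf2 TKO, 4 to 6 in p62 TKO versus WT and 1 to 4 in Nrf2 TKO versus WT. It stayed at 6 in DKO versus Atg5 KO and 3 in DKO versus TSC1 KO. The cause of these changes was not tested.

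With the replicate block, 7 genes were called in DKO versus WT, 2 in p62 TKO versus DKO and 4 in Nrf2 TKO versus DKO, and the other comparisons kept their counts. The calls lost were Hspa1a in DKO versus WT (adjusted p = 0.073), Hsph1 in p62 TKO versus DKO and Hspa1b in Nrf2 TKO versus DKO. The numbers gave no sign of pairing: same-numbered libraries of different groups had a median r of -0.01 (-0.28 to 0.26 over 60 pairs), and 6 of 24 libraries correlated best with their own number. With 2 to 51 reads per library, differences in Hspa1a are limited by depth.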
